A study of Mus musculus with 12 samples.

Results

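Integrins and laminins are the receptors and one of the main ligand families through which a cell holds on to its surrounding matrix, and their genes were followed through the conversion of mouse embryonic fibroblasts to adipocytes. The genes were found by their names: every probe set of the array that was assigned to exactly 1 gene whose symbol begins with Itga or Itgb and a number, or with Lama, Lamb or Lamc and a number, or is Itgav. This gave 35 of the 19938 genes measured, each read by 1 probe set. They comprise 13 integrin alpha subunits, 9 integrin beta subunits, 10 laminin chains and 3 genes that share the letters of a beta subunit but encode other proteins (Itgb1bp1, Itgb1bp2 and Itgb3bp). The alpha subunits of leukocytes that are named by letters, such as Itgam, lie outside this naming rule.

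RNA from 12 samples of fibroblasts, all from embryos of the C57BL6 strain harvested at embryonic day 14, was measured on a single-colour array, in 4 groups of 3 samples. Wild-type (WT) undifferentiated and D1D2KO undifferentiated cells were grown in medium with serum. D1D2KO cells lack the diacylglycerol acyltransferases DGAT1 and DGAT2, which complete the synthesis of triacylglycerol. WT differentiated and D1D2KO differentiated cells were first left for 2 days after reaching confluence. They then received troglitazone (15 µM), insulin (5 µg/ml), isobutylmethylxanthine (500 µM) and dexamethasone (1 µM) for 2 to 3 days, followed by 2 days of insulin with troglitazone alone and a final period in medium without these agents. The samples are described as biological replicates without naming the embryo or culture of each, so each p-value reflects only how far these samples spread, which may be technical, and the number of arrays limits the precision. These were whole cultures, in which fewer cells of a type and less RNA per cell cannot be told apart.

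An integrin is a pair of 1 alpha and 1 beta subunit that spans the plasma membrane, binds matrix outside the cell and connects to actin inside it. The alpha subunit largely sets which ligand is bound: laminin, collagen, or proteins such as fibronectin and vitronectin that carry the amino acid motif arginine-glycine-aspartate (RGD). Laminins are trimers of an alpha, a beta and a gamma chain and, with collagen IV, nidogen and perlecan, build the basement membrane, the thin matrix sheet that surrounds each mature adipocyte but not a fibroblast.

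Promoter sequences of members on which the results below turn were taken from RefSeq (GRCm38.p6), where 24 of the 35 genes had an entry, with 27 start sites in all. Those of 4 genes are shown as the 250 bases before the start, 5′ to 3′ on the gene's strand. Itga5 and Itga11 are the integrin genes whose response to differentiation differed between the genotypes in the test described below. Lamb1 is a laminin chain that rose, and Lama5 a chain that fell. Capitals mark matches, on either strand, to any of the motifs searched.
Itga5 (chr15:103366792-103367041, minus strand): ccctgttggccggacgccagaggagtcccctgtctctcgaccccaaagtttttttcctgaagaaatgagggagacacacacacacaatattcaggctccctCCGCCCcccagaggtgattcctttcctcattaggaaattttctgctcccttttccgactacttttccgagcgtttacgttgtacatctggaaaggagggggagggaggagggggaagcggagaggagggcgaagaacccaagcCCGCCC
Itga11 (chr9:62677605-62677854, plus strand): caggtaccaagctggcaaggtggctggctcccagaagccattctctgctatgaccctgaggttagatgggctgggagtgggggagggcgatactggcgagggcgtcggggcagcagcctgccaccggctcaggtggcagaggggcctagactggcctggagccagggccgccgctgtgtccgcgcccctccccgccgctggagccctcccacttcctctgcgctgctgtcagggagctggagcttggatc
Lamb1 (chr12:31265043-31265292, plus strand): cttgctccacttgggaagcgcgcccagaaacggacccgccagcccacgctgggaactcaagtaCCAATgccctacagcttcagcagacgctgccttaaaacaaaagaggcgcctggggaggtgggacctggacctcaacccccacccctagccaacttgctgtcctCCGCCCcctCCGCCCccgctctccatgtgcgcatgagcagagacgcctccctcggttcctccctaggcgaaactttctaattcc
Lama5 (chr2:180225860-180226109, minus strand): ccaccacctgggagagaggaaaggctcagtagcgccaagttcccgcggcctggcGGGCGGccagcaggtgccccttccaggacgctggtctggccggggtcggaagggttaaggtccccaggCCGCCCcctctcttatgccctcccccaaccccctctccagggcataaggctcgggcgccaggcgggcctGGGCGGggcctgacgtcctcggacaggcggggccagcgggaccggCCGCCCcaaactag

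The search covered both strands and motifs none of which contains another. They were the core promoter element TATAAA, the CCAAT motif of nuclear factor Y, the GC box of Sp1 spelled GGGCGG, and the element TGANTCA of the factor AP-1. The remaining motifs were CATTCC for the TEAD factors of the Hippo pathway, the nuclear receptor element AGGTCA, and the CArG box of serum response factor. The GC box was found in 8 of the 27 member windows, belonging to 7 genes, among them Itga5, Lama5 and Lamb1, and in 32.7% of all 32851 promoter windows of this length. CCAAT was found in 3 member windows (Itga3, Itgb8 and Lamb1) and in 33.8% of all windows. The CArG box was found in those of Itgb6 and Lama2, against 1.47% of all, CATTCC in those of Itga10, Itgb1 and Lamb3, against 12.6%, and AGGTCA in that of Itgb2l, against 14%. TATAAA and TGANTCA, which occur in 12.4% and 6.75% of all windows, are not among the letters of the member windows, and the Itga11 window matched none of the motifs. The shown window of Itga11 has a GC content of 68.4% and that of Itga5 one of 55.6%. These are letter matches and not binding sites.

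Samples of 1 group correlated with r of 0.993 to 0.997 across genes. The array signals of both targeted genes were lower in D1D2KO than in WT cells, with differences of -1.34 (Dgat1) and -0.47 (Dgat2) before and -1.39 and -1.67 after differentiation, on the log2 scale used throughout. Both signals also rose with differentiation, by 2.46 (Dgat1) and 4.27 (Dgat2) in WT and by 2.41 and 3.07 in D1D2KO cells. The position of either probe set relative to the deletion is unknown here. The labels of the tissue were checked against markers. All 6 adipocyte markers rose in each genotype, with a median change of 4.91 in WT and 5.75 in D1D2KO cells, and 6 (WT) or 7 (D1D2KO) of 8 fibroblast markers fell. The cultures also held signal of macrophage genes: the mean over 8 markers lay at 9.43 to 9.54 in WT undifferentiated and 9.44 to 9.51 in D1D2KO undifferentiated samples, and at 8.36 to 8.59 and 8.27 to 8.46 after differentiation. Averaged in the same way, markers of endothelial (5 genes), epithelial (6), glial (3 measured) and platelet (3 measured) cells lay at 5.00 to 5.04, 5.31 to 5.37, 6.57 to 6.70 and 5.37 to 5.50 in WT undifferentiated samples. With WT differentiation 2 of the endothelial, 1 of the epithelial and all 3 glial markers fell, as did 1 of 5 skeletal muscle markers. In D1D2KO cells 2 endothelial, 2 epithelial, 2 glial and 2 skeletal muscle markers fell. Of all genes, 19.4% fell and 14.7% rose in WT by the test described below, and 21.2% and 15.4% in D1D2KO cells. The 1 epithelial and 1 skeletal muscle marker that fell in WT are near this share.

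With differentiation most integrin genes fell, and laminin chains both rose and fell, in each genotype. Each comparison was fitted across all genes with limma, and a gene was called when its Benjamini-Hochberg adjusted p over 19938 genes was under 0.05. In WT cells 19 of the 35 members fell and 6 rose, against 19.4% of all genes called lower and 14.7% called higher. In D1D2KO cells 19 fell and 4 rose, against 21.2% and 15.4%. The median change over the members was -0.35 in WT and -0.30 in D1D2KO cells, while the median over all genes was 0.02 and 0.01. In both genotypes 18 members fell and 4 rose. Of the 22 integrin subunits 15 fell and 1 rose in WT, and 15 fell and 1 rose in D1D2KO cells, whereas of the 10 laminin chains 4 fell and 4 rose in WT and 4 fell and 3 rose in D1D2KO cells. Smooth muscle markers fell beside the integrins, 3 of 4 in WT (median -0.45) and 4 of 4 in D1D2KO cells (median -0.99), and their part in these falls was not tested. The 6 rises in WT became 3 without WT undifferentiated replicate 2, WT differentiated replicate 1 or WT differentiated replicate 3. The 4 rises in D1D2KO became 2 without D1D2KO undifferentiated replicate 1 or D1D2KO differentiated replicate 2.

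**Figure D1:**
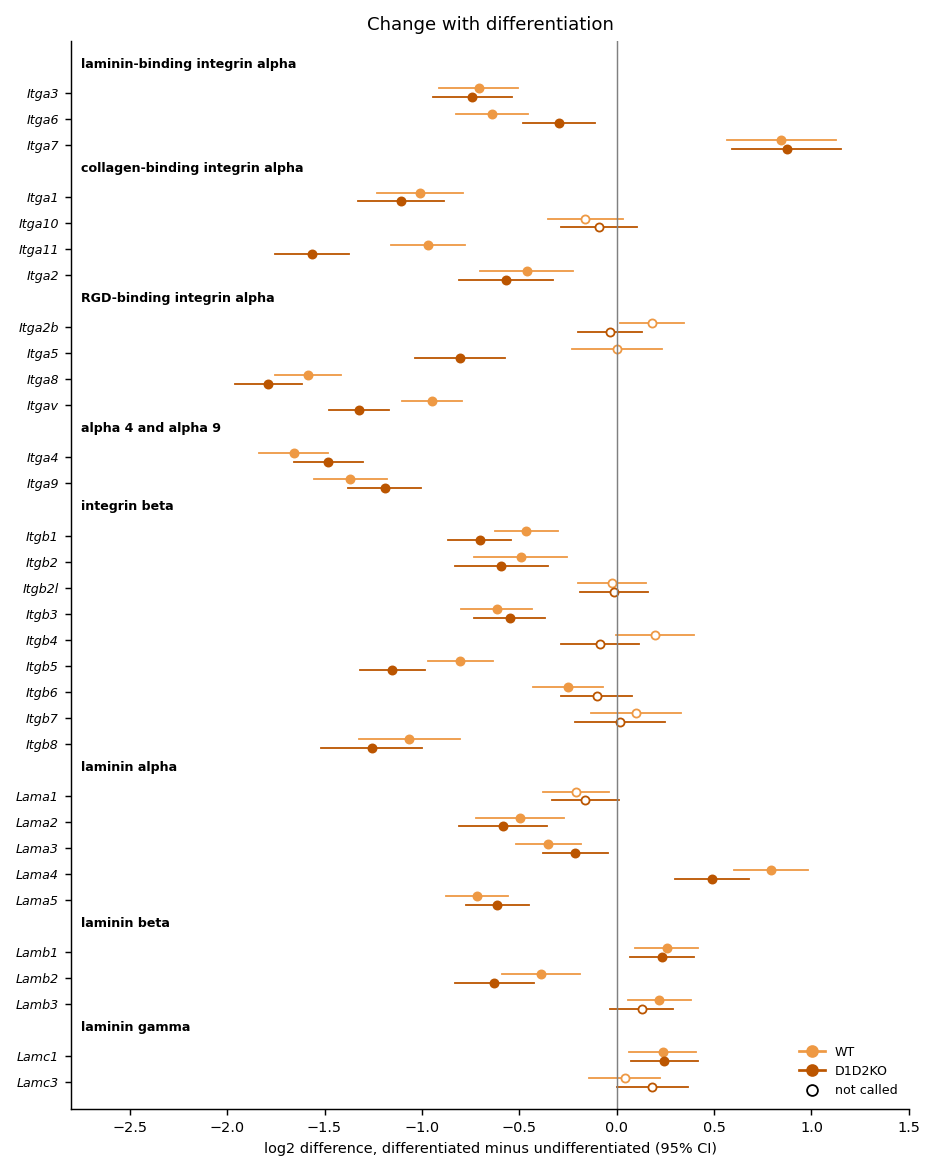
Change of each integrin and laminin gene with differentiation, as log2 difference with its 95% confidence interval (limma, 3 samples per group), in WT (light) and D1D2KO (dark) cells. Filled circles are called at an adjusted p under 0.05. Most integrin subunits lie left of 0, Itga7 and Lama4 lie right of it in both genotypes, and Itga5 lies at 0.00 in WT and at -0.80 in D1D2KO cells.

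The laminin-binding alpha subunits moved in opposite directions. Itga7, the alpha subunit of the main laminin receptor of muscle, had signals of 7.06, 7.31 and 7.10 in WT undifferentiated and 8.17, 7.72 and 8.11 in WT differentiated samples. In D1D2KO cells its signals were 7.04, 7.18 and 6.89 before and 8.12, 7.96 and 7.65 after. It was the single integrin subunit that was called higher, with every differentiated sample above every undifferentiated one in both genotypes: it rose 1.80-fold in WT (log2 0.84, SE 0.13; limma, adjusted p = 7.70e-05) and 1.83-fold in D1D2KO cells (log2 0.87, SE 0.13; adjusted p = 4.31e-05). Itga3, which pairs with beta 1 and binds laminins with an alpha 5 or alpha 3 chain, had signals of 6.89, 6.78 and 6.64 against 6.25, 5.97 and 5.97 in WT and of 6.47, 6.35 and 6.55 against 5.65, 5.75 and 5.75 in D1D2KO cells. It fell without overlap between the states, by 0.71 and 0.74 (SE 0.10 for both; adjusted p = 1.62e-05 and 7.11e-06). Itga6, a laminin receptor subunit that pairs with beta 1 or beta 4, went from 8.32-8.37 to 7.62-7.87 in WT and from 8.32-8.36 to 7.89-8.14 in D1D2KO cells. It fell by 0.64 in WT (SE 0.09; adjusted p = 1.79e-05) and by 0.30 in D1D2KO cells (SE 0.09; adjusted p = 0.0117). The latter call ended without D1D2KO differentiated replicate 3 (adjusted p = 0.0570, with 0.00436 to 0.0570 over all alternatives). The difference between the responses of Itga6, 0.34 (95% interval 0.08 to 0.60), did not pass the test (adjusted p = 0.251).

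Collagen-binding subunits fell, apart from Itga10. Itga1 and Itga11 each pair with beta 1 and are collagen receptors of mesenchymal cells, the latter typical of fibroblasts. Itga1 signals were 9.31, 9.23 and 9.12 in WT undifferentiated and 8.34, 8.11 and 8.18 in WT differentiated samples, and 8.54, 8.53 and 8.60 and 7.55, 7.61 and 7.19 in the corresponding D1D2KO samples. The 4 groups of Itga1 did not overlap and lay in the order WT undifferentiated, D1D2KO undifferentiated, WT differentiated, D1D2KO differentiated. The fall was 2.01-fold in WT (log2 -1.01, SE 0.10; adjusted p = 7.85e-07) and 2.16-fold in D1D2KO cells (log2 -1.11, SE 0.10; adjusted p = 1.75e-07). Itga11 signals were 7.76, 7.70 and 7.59 before and 6.76, 6.82 and 6.56 after differentiation in WT, and 7.90, 7.81 and 7.94 before and 6.39, 6.36 and 6.21 after in D1D2KO cells. Here the D1D2KO groups enclosed the WT groups, with the higher start and the lower end. The higher start, by 0.20, was not called (limma, adjusted p = 0.164). Itga11 fell 1.96-fold in WT (SE of log2 0.09; adjusted p = 1.85e-07) and 2.95-fold in D1D2KO cells (adjusted p = 3.25e-10). Itga2, the collagen receptor subunit of platelets and epithelia, went from 6.50-6.63 to 5.77-6.32 in WT and from 6.14-6.28 to 5.63-5.73 in D1D2KO cells, falls of 0.46 and 0.57 (SE 0.11; adjusted p = 0.00398 and 0.000593). Itga10, a receptor subunit of cartilage, had signals of 5.01, 5.05 and 5.14 and 5.03, 4.83 and 4.85 in the WT states and of 5.15, 5.01 and 5.22 and 5.16, 5.04 and 4.90 in the D1D2KO states. It was not called, with changes of -0.16 (adjusted p = 0.20) and -0.09 (adjusted p = 0.491).

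Among the RGD-binding alpha subunits, Itga8 and Itgav fell in both genotypes and Itga5 fell in D1D2KO cells. Itga8, which pairs with beta 1 and binds nephronectin, had signals of 9.40, 9.41 and 9.28 before and 7.84, 7.84 and 7.65 after differentiation in WT. In D1D2KO cells they were 9.20, 9.26 and 9.12 and 7.35, 7.44 and 7.42. This fall, 3.00-fold in WT (log2 -1.58, SE 0.08; adjusted p = 1.23e-10) and 3.46-fold in D1D2KO cells (log2 -1.79; adjusted p = 1.78e-11), was among the largest of all members. Itgav, the alpha subunit of the vitronectin receptors and of the integrins that activate latent TGF-beta, had signals of 9.85, 9.76 and 9.78 against 8.82, 8.92 and 8.82 in WT and of 9.83, 9.77 and 9.84 against 8.52, 8.50 and 8.45 in D1D2KO cells. The undifferentiated groups of Itgav overlapped, and all differentiated D1D2KO samples lay below all differentiated WT samples. Its change was -0.95 in WT (SE 0.07; adjusted p = 2.08e-08) and -1.32 in D1D2KO cells (adjusted p = 2.13e-10). Itga2b, the fibrinogen receptor subunit of platelets, had signals of 5.57, 5.55 and 5.62 and 5.88, 5.63 and 5.76 in WT and of 5.79, 5.77 and 5.75 and 5.76, 5.72 and 5.74 in D1D2KO cells. It was not called in the full fit, with 0.18 in WT (adjusted p = 0.0863, and 0.0228 without WT differentiated replicate 2, with 0.0228 to 0.307 over all alternatives) and -0.04 in D1D2KO cells.

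Itga5, the alpha subunit of the principal fibronectin receptor, was the member in which the genotypes differed most. Its signals in WT were 8.60, 8.57 and 8.32 undifferentiated and 8.51, 8.67 and 8.31 differentiated, so that these groups overlapped. In D1D2KO cells the signals were 7.77, 8.01 and 7.79 undifferentiated and 7.01, 7.19 and 6.96 differentiated. All D1D2KO samples lay below all WT samples, and the differentiated D1D2KO samples below the undifferentiated ones. The change with differentiation was 0.00 in WT (95% interval -0.23 to 0.23; limma, adjusted p = 0.992) and -0.80 in D1D2KO cells (SE 0.11; adjusted p = 1.21e-05).

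Itga4 and Itga9, which form the class of alpha subunits that bind fibronectin variants, VCAM-1 and tenascin, fell in both genotypes. The former is found on leukocytes as well as on mesenchymal cells. Itga4 had signals of 7.47, 7.60 and 7.59 before and 5.91, 5.97 and 5.80 after differentiation in WT, and of 7.38, 7.42 and 7.30 and 5.87, 5.78 and 6.0 in D1D2KO cells. Its fall was 3.16-fold in WT (log2 -1.66, SE 0.08; adjusted p = 9.96e-11) and 2.79-fold in D1D2KO cells (log2 -1.48; adjusted p = 2.75e-10), and the differentiated groups of the genotypes overlapped. Itga9 had signals of 8.10, 8.04 and 7.98 against 6.76, 6.74 and 6.50 in WT and of 7.69, 7.66 and 7.80 against 6.55, 6.43 and 6.60 in D1D2KO cells, without overlap between the states. It fell 2.58-fold (SE of log2 0.09; adjusted p = 2.37e-09) and 2.28-fold (adjusted p = 8.74e-09). Macrophage markers fell beside Itga4, 7 of 8 in each genotype, with medians of -1.0 and -0.99. The leukocyte subunit Itgam, outside the naming rule, fell by 1.04 and 1.08 (adjusted p = 1.94e-07 and 8.17e-08). Of the 5 letter-named leukocyte subunits 2 fell and 2 rose in WT, and 1 fell and 1 rose in D1D2KO cells, where Itgae rose by 0.72 (adjusted p = 0.000658). Of all genes 19.4% fell and 14.7% rose in WT, and 21.2% and 15.4% in D1D2KO cells. The D1D2KO counts of these 5 subunits lie near those shares. The part of macrophages in the change of Itga4 and Itgb2 was not tested.

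**Figure D2:**
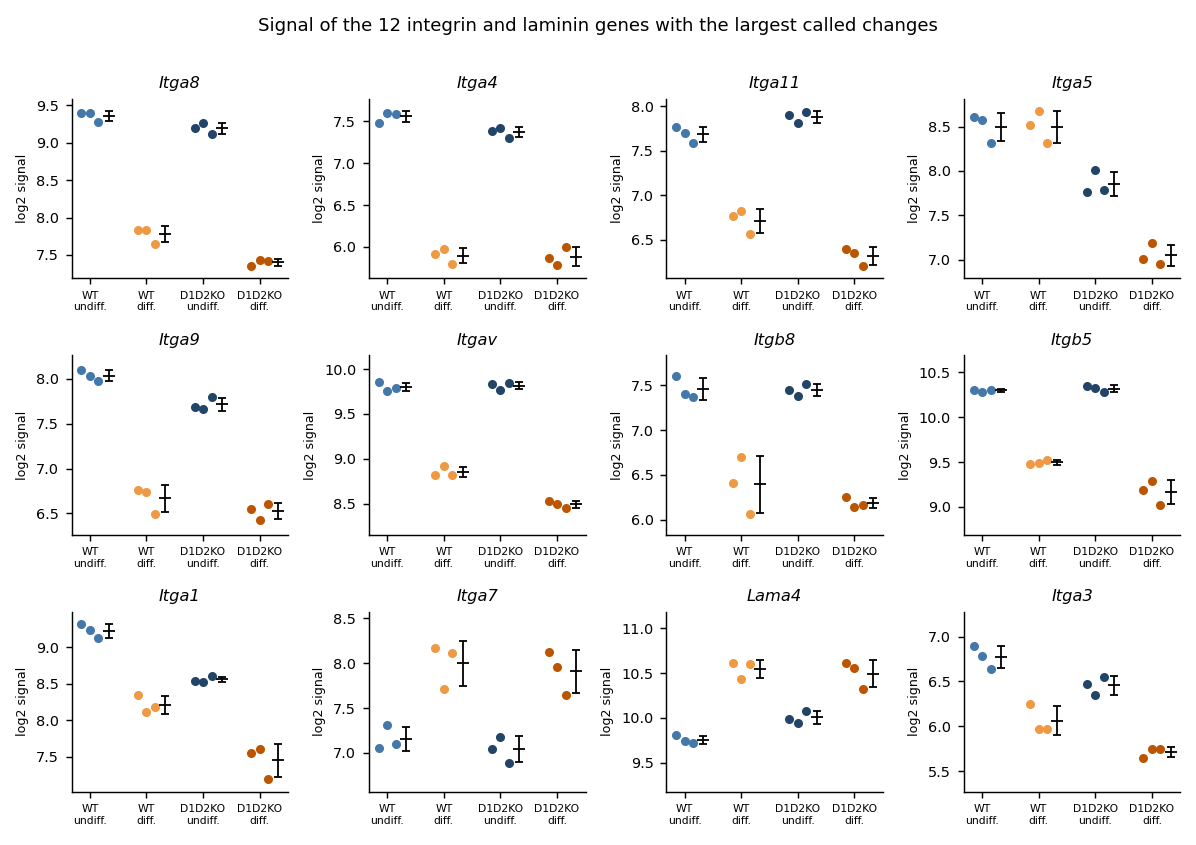
Log2 signal in each of the 12 samples (points) with the mean and SD of 3 samples (black) for the 12 members with the largest called changes, 1 panel per gene, each with its own vertical axis. Within each genotype, differentiated samples lie below undifferentiated ones for Itga8, Itga4, Itga11, Itga9, Itgav, Itgb8, Itgb5, Itga1 and Itga3, and above them for Itga7 and Lama4, while WT samples of Itga5 overlap.

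Of the 9 beta subunits 6 fell in WT and 5 in D1D2KO cells. Itgb1, the common partner of the collagen and fibronectin receptors and of most laminin receptors, went from 11.67-11.71 to 11.18-11.26 in WT and from 11.55-11.62 to 10.78-10.99 in D1D2KO cells. That fall was 0.46 (SE 0.08; adjusted p = 0.000128) and 0.70 (adjusted p = 9.69e-07), with no overlap between the states. Itgb5, a partner of alpha v in binding vitronectin, had signals of 10.31, 10.28 and 10.31 against 9.48, 9.49 and 9.53 in WT and of 10.35, 10.33 and 10.28 against 9.19, 9.29 and 9.02 in D1D2KO cells. It fell 1.74-fold in WT (log2 -0.80, SE 0.08; adjusted p = 4.70e-07) and 2.22-fold in D1D2KO cells (log2 -1.15; adjusted p = 3.56e-09). Itgb8, the partner of alpha v that binds latent TGF-beta, had signals of 7.60, 7.41 and 7.36 before and 6.41, 6.70 and 6.07 after differentiation in WT, where the differentiated samples were widely spread. In D1D2KO cells they were 7.45, 7.38 and 7.51 before and 6.26, 6.15 and 6.16 after. The changes of Itgb8 were -1.06 (SE 0.12; adjusted p = 2.54e-06) and -1.26 (adjusted p = 2.39e-07).

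The beta subunits Itgb3 and Itgb2 fell in both genotypes. Itgb3, another partner of alpha v, moved by -0.62 in WT and -0.55 in D1D2KO cells (SE 0.09; adjusted p = 2.24e-05 and 5.77e-05), from 6.45-6.66 to 5.86-6.0 and from 6.35-6.36 to 5.71-5.96. Itgb2, the beta subunit of leukocytes, moved by -0.49 and -0.59 (SE 0.11; adjusted p = 0.00240 and 0.000407), beside the macrophage markers given above. Itgb6, an epithelial partner of alpha v, lay between 3.21 and 3.59, below the lower quartile of signals on every array (4.10 to 4.26). Its change in WT was called at -0.25 (adjusted p = 0.0302), and this call ended without any 1 of the 3 WT undifferentiated samples or WT differentiated replicate 1 or 2 (adjusted p of 0.0531 to 0.0806). Itgb4 (epithelial hemidesmosomes), Itgb7 (lymphocytes) and Itgb2l (a relative of Itgb2) were not called in either differentiation, with changes between -0.09 and 0.20. Itgb4 signals were 5.26, 5.08 and 5.43 and 5.45, 5.33 and 5.59 in WT and 5.50, 5.57 and 5.58 and 5.45, 5.43 and 5.50 in D1D2KO cells. Leaving out WT undifferentiated replicate 3 brought Itgb4 in WT to an adjusted p = 0.0350, with 0.0350 to 0.479 over all alternatives.

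The laminin chains divided into rising and falling members, and the risers included 1 alpha, 1 beta and 1 gamma chain in both genotypes. Lama4, the alpha chain of mesenchymal, endothelial and adipose basement membranes, had signals of 9.81, 9.74 and 9.72 in WT undifferentiated and 10.61, 10.43 and 10.60 in WT differentiated samples, and of 9.99, 9.94 and 10.08 and 10.61, 10.55 and 10.32 in D1D2KO cells. All differentiated samples lay above all undifferentiated ones. It rose 1.73-fold in WT (log2 0.79, SE 0.09; limma, adjusted p = 2.14e-06) and 1.40-fold in D1D2KO cells (log2 0.49; adjusted p = 0.000273). Lamb1 and Lamc1, the beta and gamma chains most widely used in laminin trimers, rose by less. Lamb1 went from 10.07-10.22 to 10.35-10.46 in WT and from 10.19-10.29 to 10.38-10.51 in D1D2KO cells (log2 0.26 and 0.23, SE 0.08; adjusted p = 0.0163 and 0.0265). Lamc1 went from 9.49-9.72 to 9.81-9.90 and from 9.46-9.63 to 9.75-9.82 (log2 0.24 and 0.24, SE 0.08; adjusted p = 0.0336 and 0.0252).

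The calls of the beta and gamma chain depended on single samples. No states overlapped for either gene in either genotype, but the same held for Lama1, which was not called in either. In WT the call of Lamb1 ended without replicate 2 or 3 of the undifferentiated or replicate 1 of the differentiated cells (adjusted p of 0.0545 to 0.0639), and that of Lamc1 without any of these or WT differentiated replicate 3 (0.0504 to 0.145). In D1D2KO cells both calls ended without undifferentiated replicate 1 or 2 or differentiated replicate 1 or 2 (adjusted p of 0.0693 to 0.0919 for Lamb1 and 0.0524 to 0.110 for Lamc1). After quantile normalization Lamc1 was not called in WT (adjusted p = 0.113) or D1D2KO cells (adjusted p = 0.178). The rise of Lama4 was called in every alternative other than a minimum fold of 2, which it did not reach in either genotype. Lamb3, the beta chain of the epithelial laminin that anchors skin, rose in WT by 0.22 (adjusted p = 0.0365), a call that ended in 10 alternatives (adjusted p up to 0.162), among them those without D1D2KO undifferentiated replicate 1 or 2 or any 1 WT sample other than undifferentiated replicate 3. In D1D2KO cells its change was 0.13 (adjusted p = 0.220).

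Of the falling chains, Lama5 is the widely expressed alpha chain of epithelial and vascular basement membranes. Its signals were 7.44, 7.38 and 7.32 before and 6.69, 6.72 and 6.59 after differentiation in WT, and 6.69, 6.70 and 6.75 before and 6.10, 6.03 and 6.17 after in D1D2KO cells. The WT differentiated and D1D2KO undifferentiated samples of Lama5 overlapped, with WT undifferentiated samples above and D1D2KO differentiated samples below them. The fall was 1.64-fold in WT (log2 -0.72, SE 0.08; adjusted p = 9.94e-07) and 1.53-fold in D1D2KO cells (log2 -0.61; adjusted p = 4.30e-06). Lama2, the alpha chain of muscle and nerve, fell by 0.50 and 0.58 (SE 0.11; adjusted p = 0.00137 and 0.000268), from 8.09-8.23 to 7.46-7.78 in WT and from 8.18-8.31 to 7.44-7.85 in D1D2KO cells. Lamb2, the beta chain of the neuromuscular junction and the kidney filter, went from 8.57-8.76 to 8.16-8.31 and from 8.63-8.72 to 7.87-8.24, falls of 0.39 and 0.63 (adjusted p = 0.00386 and 4.06e-05). Lama3, an epithelial alpha chain, changed by -0.35 in WT (adjusted p = 0.00206) and -0.21 in D1D2KO cells (adjusted p = 0.0433). The latter call was lost with the replicate block (adjusted p = 0.0546, or 0.0564 in a fit of the D1D2KO groups alone) and in 12 alternatives in all (adjusted p of 0.0519 to 0.171, with 0.0210 as the lowest over all alternatives), among them those without any 1 of the WT or D1D2KO undifferentiated samples or D1D2KO differentiated replicate 1. Lama1, the alpha chain of the early embryo, and Lamc3 were not called in either genotype. Lama1 signals were 5.72, 5.58 and 5.55 before and 5.41, 5.50 and 5.32 after in WT, and 5.65, 5.65 and 5.64 and 5.42, 5.48 and 5.57 in D1D2KO cells. The changes were -0.21 in WT (adjusted p = 0.0570) and -0.16 in D1D2KO cells for Lama1, and 0.04 and 0.18 for Lamc3. The Lama1 change in WT was called after quantile normalization (adjusted p = 0.0397) and without WT differentiated replicate 2 or D1D2KO differentiated replicate 3 (0.0297 and 0.0446, with 0.0297 to 0.227 over all alternatives).

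**Figure D3:**
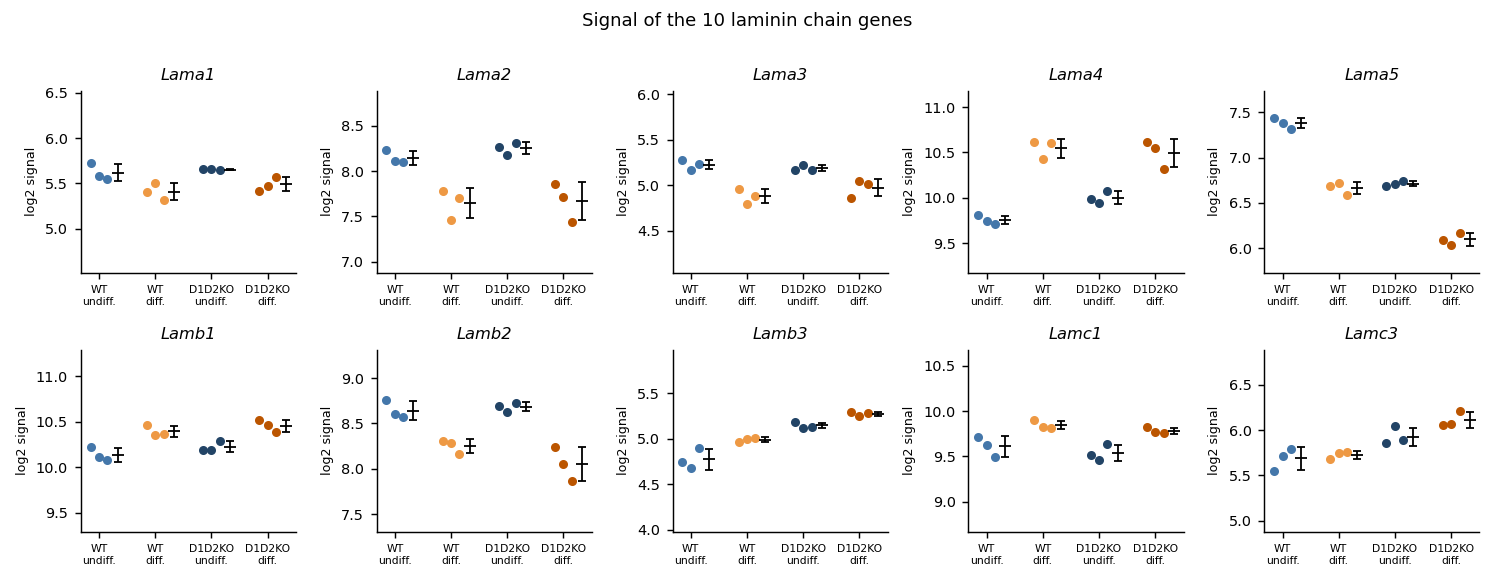
Log2 signal of the 10 laminin chain genes in each of the 12 samples (points), with the mean and SD of 3 samples (black) and an own vertical axis for each gene. Within each genotype, differentiated samples lie above undifferentiated ones for Lama4, Lamb1, Lamb3 and Lamc1, whether or not the change was called. They lie below them for Lama1, Lama2, Lama3, Lama5 and Lamb2. For Lama5 both D1D2KO groups lie below the WT group of the same state.

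The 3 genes that share the letters of a beta subunit encode an adaptor that binds the beta 1 tail (Itgb1bp1), a muscle chaperone (Itgb1bp2) and a centromere protein (Itgb3bp). Itgb1bp1 signals were 7.51, 7.55 and 7.67 and 7.47, 7.83 and 7.55 in WT and 7.42, 7.44 and 7.44 and 7.44, 7.45 and 7.52 in D1D2KO cells. Itgb1bp2 signals were 5.01, 5.14 and 5.14 and 5.22, 5.14 and 5.08 in WT and 5.43, 5.19 and 5.23 and 5.32, 5.04 and 5.12 in D1D2KO cells. Neither was called in any comparison. Itgb3bp, with signals between 3.23 and 4.22, was called higher in WT by 0.45 (adjusted p = 0.0259), and this ended without WT undifferentiated replicate 1 or WT differentiated replicate 2 or 3 (adjusted p of 0.0708 to 0.154, with 0.00584 as the lowest over all alternatives). In D1D2KO cells its change of 0.35 was not called (adjusted p = 0.0794) but was with the replicate block (adjusted p = 0.0242, or 0.0452 in a fit of the D1D2KO groups alone) and without D1D2KO undifferentiated replicate 2 or D1D2KO differentiated replicate 1 (0.0180 and 0.0349, with 0.0180 to 0.308 over all alternatives). Over all comparisons 28 of the 35 members were called at least once, and 7 were not: these 2, Itga10, Itga2b, Itgb4, Itgb7 and Lama1.

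Comparison of the genotypes before differentiation asked whether fibroblasts that lack DGAT1 and DGAT2 already differ in their adhesion genes. Of the 35 members 4 were lower in D1D2KO cells and 1 was higher, against 3.62% and 4.4% of all genes, and the median difference was -0.01 over the members and 0.02 over all genes. After quantile normalization the counts were 3 lower and 2 higher. Lama5 showed 63.0% of the WT signal (log2 -0.67, SE 0.08; adjusted p = 4.55e-05), Itga1 63.2% (log2 -0.66, SE 0.10; adjusted p = 0.00137) and Itga5 64.1% (log2 -0.64, SE 0.11; adjusted p = 0.00260). The undifferentiated genotype groups of these 3 genes did not overlap, as the values above show. Itga9 differed by -0.32 (adjusted p = 0.0383), and its call ended after quantile normalization (adjusted p = 0.140) and without WT undifferentiated replicate 1 or 2 or any 1 of the D1D2KO undifferentiated samples (0.0809 to 0.130). Lamb3 was higher, at 5.18, 5.12 and 5.14 against 4.75, 4.68 and 4.90 in WT (log2 0.37, SE 0.08; adjusted p = 0.00940, and 0.0698 without WT undifferentiated replicate 2, with 0.00591 to 0.0698 over all alternatives). That count of 1 higher became 2 without WT undifferentiated replicate 3, WT differentiated replicate 2 or D1D2KO differentiated replicate 3. Just outside the threshold lay Itgb2l (0.27; adjusted p = 0.0503), Itga3 (-0.32; adjusted p = 0.0534), Itgb4 (0.29; adjusted p = 0.0661), Itga2 (-0.33; adjusted p = 0.0800), Lama4 (0.25; adjusted p = 0.0913) and Lamc3 (0.24; adjusted p = 0.0919). All of these but Lamc3 were called in some alternatives: Itga3 in 7 (lowest adjusted p 0.0343, highest over all alternatives 0.182), Itgb2l in 3 (0.0454 and 0.212), and Itgb4 (0.0267 and 0.292), Itga2 (0.0179 and 0.207) and Lama4 (0.0403 and 0.287) in 2 each. Leaving out 1 sample did so for Itga3 (WT undifferentiated replicate 3, WT differentiated replicate 1 or 2), Itgb2l (WT differentiated replicate 2 or D1D2KO differentiated replicate 3), Itgb4 (WT undifferentiated replicate 3) and Itga2 (WT differentiated replicate 2). Itgb1, Itgav and Itgb5 differed by -0.09, 0.02 and 0.02 and did not pass the test.

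In differentiated cells 10 of the 35 members were lower and 4 were higher in D1D2KO than in WT cells, against 7.42% and 6.25% of all genes. The median difference over the members was -0.09, and 0.03 over all genes. Quantile normalization gave 10 lower and 2 higher. Among the lower members Itga5 stood apart at 36.7% of the WT signal (log2 -1.45, SE 0.11; adjusted p = 3.21e-07), followed by Itga1 at 59.1% (log2 -0.76; adjusted p = 0.000195) and Lama5 at 67.7% (log2 -0.56; adjusted p = 0.000156). Itga2 (-0.44), Itga11 (-0.40), Itga8 (-0.37), Itgav (-0.36), Itga3 (-0.35), Itgb1 (-0.33) and Itgb5 (-0.33) were lower as well (adjusted p from 0.00480 to 0.0267). Both subunits of the fibronectin receptor, Itga5 and Itgb1, and of the vitronectin receptor formed by Itgav and Itgb5 were among the lower members, although the calls of Itgb1 and Itgb5 ended in a fit of the differentiated samples alone (adjusted p = 0.0613 and 0.0716). The higher members were Lamc3 (6.06, 6.06 and 6.21 against 5.68, 5.75 and 5.76; log2 0.38, adjusted p = 0.00926), Itga6 (0.32; adjusted p = 0.0251), Itgb2l (0.28) and Lamb3 (0.28).

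Calls among the smaller of these differences depended on single samples. The 4 higher members became 2 without WT differentiated replicate 1 and 1 without WT differentiated replicate 2 or D1D2KO differentiated replicate 1. Calls of Itga2 (without any 1 of WT differentiated replicates 1 and 3 and D1D2KO differentiated replicates 1 and 3), Itga3 (WT replicate 1, D1D2KO replicates 1 and 2) and Itga6 (replicates 1 and 2 of either genotype) ended at adjusted p of 0.0505 to 0.0950. Itgb2l lost its call without any 1 WT differentiated sample or D1D2KO differentiated replicate 1 or 3, and Lamb3 without WT replicate 2 or D1D2KO replicate 1 (0.0533 to 0.0761). Itgb8 gained a call without WT differentiated replicate 3 (adjusted p = 0.0334, with 0.0334 to 0.803 over all alternatives). Calls of Itga5, Itga1, Lama5, Itga8, Itgav, Itga11 and Lamc3 held in every alternative that tested them, other than a minimum fold of 2. Of these genes only Itga5 reached that fold. Lamc3, with a mean signal of 5.86, was not tested over genes above the median signal (6.05). In a fit of the differentiated samples alone 6 members were lower and 1 was higher.

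**Figure D4:**
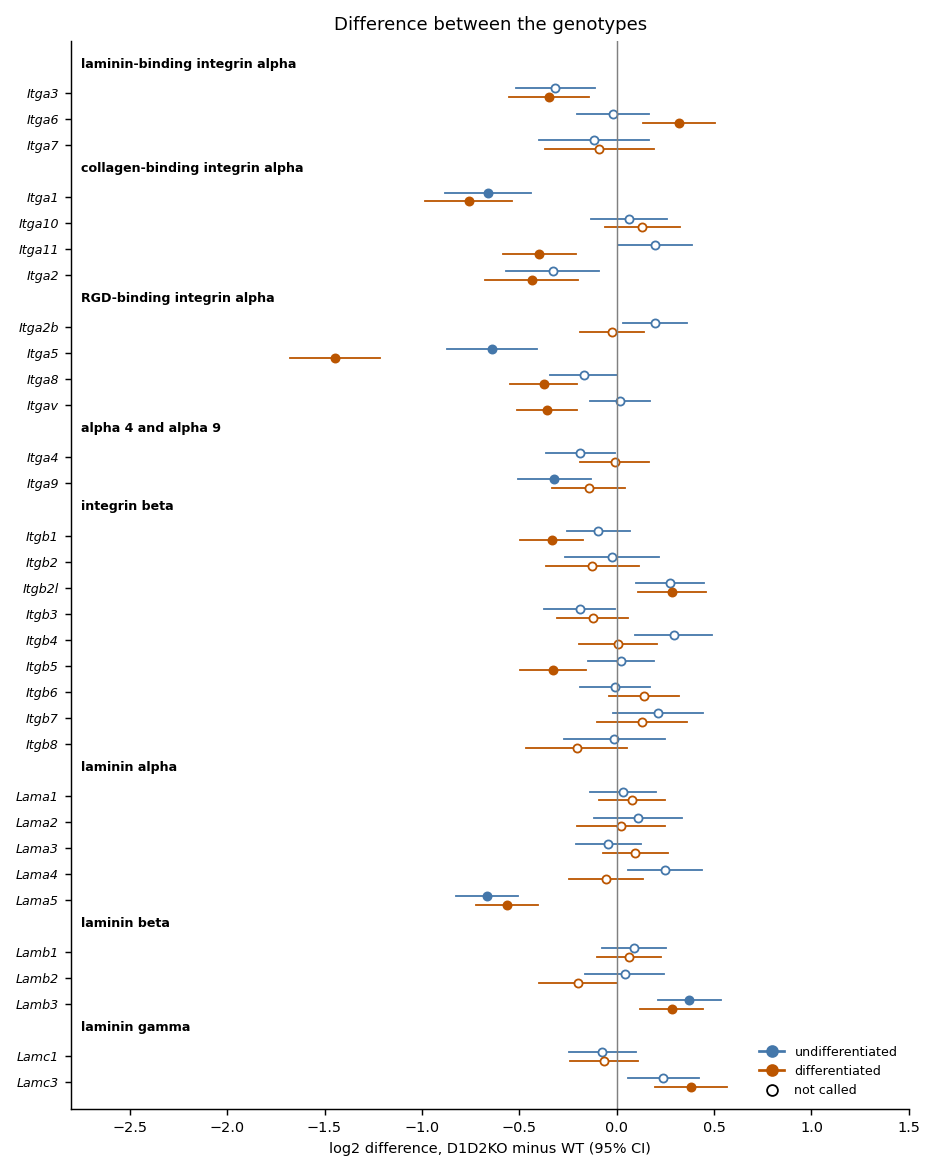
Difference between D1D2KO and WT for each integrin and laminin gene, as log2 difference with its 95% confidence interval (limma, 3 samples per group), in undifferentiated (blue) and differentiated (brown) cells. Filled circles are called at an adjusted p under 0.05. Itga5, Itga1 and Lama5 lie left of 0 in both states, and Itga5 after differentiation lies furthest from it at -1.45.

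Smooth muscle markers moved beside the genotype differences. All 4 of these markers (Acta2, Myh11, Tagln and Cnn1) had a lower signal in D1D2KO than in WT cells before and after differentiation, with medians of -1.08 before and -1.86 after differentiation. Their mean signal lay at 10.96 to 11.05 in WT and 9.66 to 9.92 in D1D2KO undifferentiated samples, and at 10.46 to 10.62 and 8.73 to 8.82 in differentiated samples. The part of smooth muscle cells in the genotype differences of the members was not tested. Of 8 macrophage markers none was called between the genotypes in the limma fit of either state, with medians of 0.00 and -0.10, and 0 before and 2 after differentiation had an unadjusted p under 0.05. The leukocyte subunit Itgam was lower in D1D2KO cells in both, by 0.63 and 0.68 (adjusted p = 0.000948 and 0.000267). The letter-named subunits Itgax and Itgal were higher in differentiated D1D2KO cells, by 0.56 and 0.34 (adjusted p = 0.00152 and 0.0332). Of 8 fibroblast markers 4 were lower in differentiated D1D2KO cells, and 4 of 6 adipocyte markers were higher, against 7.42% and 6.25% of all genes.

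The test of the difference between the differentiation responses found 2 of the 35 members, both with a more negative response in D1D2KO cells, where 0.712% of all genes were called in this direction. Itga5 differed by -0.81 (SE 0.15, 95% interval -1.13 to -0.48; limma, adjusted p = 0.0135), from the changes of -0.80 in D1D2KO and 0.00 in WT cells given above. This call held in every alternative other than a minimum fold of 2, with adjusted p of 0.00343 to 0.0418. Itga11 differed by -0.59 (SE 0.13, 95% interval -0.86 to -0.33; adjusted p = 0.0253), with falls of 0.97 in WT and 1.56 in D1D2KO cells. The call of Itga11 ended when any 1 of 6 samples was left out (replicates 2 and 3 of WT undifferentiated, 1 and 2 of WT differentiated, and 1 and 3 of D1D2KO undifferentiated cells), which leaves 1 member called (adjusted p of 0.0576 to 0.0815). Of the 4 smooth muscle markers 3 had a more negative response in D1D2KO cells as well (median -0.65). So did 1 of 8 fibroblast markers (median -0.36) and 1 of 5 skeletal muscle markers (median -0.10). Of 6 adipocyte markers 3 had a more positive response (median 0.57). The part of these cell types in the responses of Itga5 and Itga11 was not tested. A more positive response in D1D2KO cells was called by limma for 0 members, against 0.747% of all genes, and 1 member had an unadjusted p under 0.05 in that direction. Itgav (-0.37, 95% interval -0.59 to -0.15; adjusted p = 0.0947) and Itgb5 (-0.35, 95% interval -0.59 to -0.11; adjusted p = 0.170) were the next members with a more negative response, and Itgav was called with trended and robust variances (adjusted p = 0.0404) and over genes above the median signal (0.0289), with 0.0289 to 0.223 over all alternatives. For Itga7 and Lamc1 the difference was 0.03 (95% interval -0.37 to 0.42) and 0.01 (-0.23 to 0.25).

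Genes that work with integrins and laminins were followed in 5 further lists, chosen, like the members, with earlier results of these data known. Their counts stand against the shares of all genes called, which were 19.4% lower and 14.7% higher in WT differentiation, 21.2% and 15.4% in D1D2KO differentiation, and 7.42% and 6.25% between differentiated genotypes. Adhesion machinery, the proteins that connect integrin tails to actin and to signalling, had 35 measured genes, of which 18 fell in WT, while 20 fell and 2 rose in D1D2KO cells (medians -0.24 and -0.31). The scaffold Tns3 fell by 1.01 and 1.36 (adjusted p = 4.86e-08 and 7.40e-10), the actin crosslinker Flna by 0.84 and 1.19, and vinculin Vcl by 0.66 and 0.93. The kinase Ilk, at 0.04 and -0.12, was not called. After differentiation 13 of these genes were lower and 1 was higher in D1D2KO than in WT cells, with Actn1 (alpha-actinin) at -0.98, Flna at -0.73 and zyxin Zyx at -0.69. Actn1 and Zyx also had a more negative response in D1D2KO cells (-0.76 and -0.72; adjusted p = 0.00538 and 0.0356).

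Integrin ligands other than laminin and collagen had 18 measured genes, of which 12 fell and 1 rose in WT and 13 fell and 1 rose in D1D2KO cells (medians -0.42 and -0.74). The elastic fibre protein Fbln5 fell by 1.14 and 1.49, and Npnt, the nephronectin bound by the alpha 8 integrin, by 0.81 and 0.88 (adjusted p = 7.03e-07 and 1.89e-07). In differentiated cells 8 of the 18 were lower in D1D2KO, led by the alpha 9 ligand Tnc (tenascin) at -1.37 and Tgfb3, a growth factor of the TGF-beta family, at -0.92. The response was more negative in D1D2KO cells for 5 of the 18 ligands, against 0.712% of all genes, among them Tnc (-1.22), Tgfb3 (-0.86), Edil3 (-0.70) and Vcam1 (-0.58), with adjusted p from 0.000762 to 0.0357. Fibronectin Fn1, the ligand of the Itga5 receptor, fell by 0.41 in WT and 0.70 in D1D2KO cells (adjusted p = 0.000330 and 8.07e-07) and did not pass the test of the difference in response (-0.29, SE 0.11; adjusted p = 0.262). Basement membrane partners of laminin, 19 genes, moved both ways, with 3 up and 8 down in WT and 4 up and 8 down in D1D2KO cells. The basement membrane collagen Col15a1 rose by 2.24 and 2.50 (adjusted p = 2.07e-11 and 3.25e-12), while Col4a1 and Col4a2, the collagen IV chains that form the sheet with laminin, rose by 1.02 and 0.96 in D1D2KO cells and by 0.94 and 0.86 in WT (adjusted p = 1.89e-06 and 5.56e-07). Fras1, a protein of the embryonic basement membrane, fell by 1.81 and 1.49. Its relatives Frem2 and Frem1 fell by 1.09 and 1.08 in WT and had a more positive response in D1D2KO cells (0.87 and 0.68; adjusted p = 0.0368 and 0.0240). Both were already lower in D1D2KO than in WT cells before differentiation (-1.34 and -0.70), and Frem2 was lower after it as well (-0.47). The values of Fn1 in differentiation, of Col4a1 and Col4a2 in WT, and of Vcl and Npnt in D1D2KO differentiation were chosen after they were seen. Nidogen Nid1 (0.16 and 0.19) and perlecan Hspg2 (-0.01 and -0.22) were not called. Of 11 membrane proteins that associate with integrins, 4 fell and 1 rose in WT and 6 fell and 1 rose in D1D2KO cells, led by the tetraspanin Cd9 (-0.95 and -1.02) and the syndecan Sdc2 (-0.75 and -1.25). Among the 5 leukocyte alpha subunits, Itgam and Itgal (-0.70) fell and Itgae (0.70) and Itgad (0.40) rose in WT cells.

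**Figure D5:**
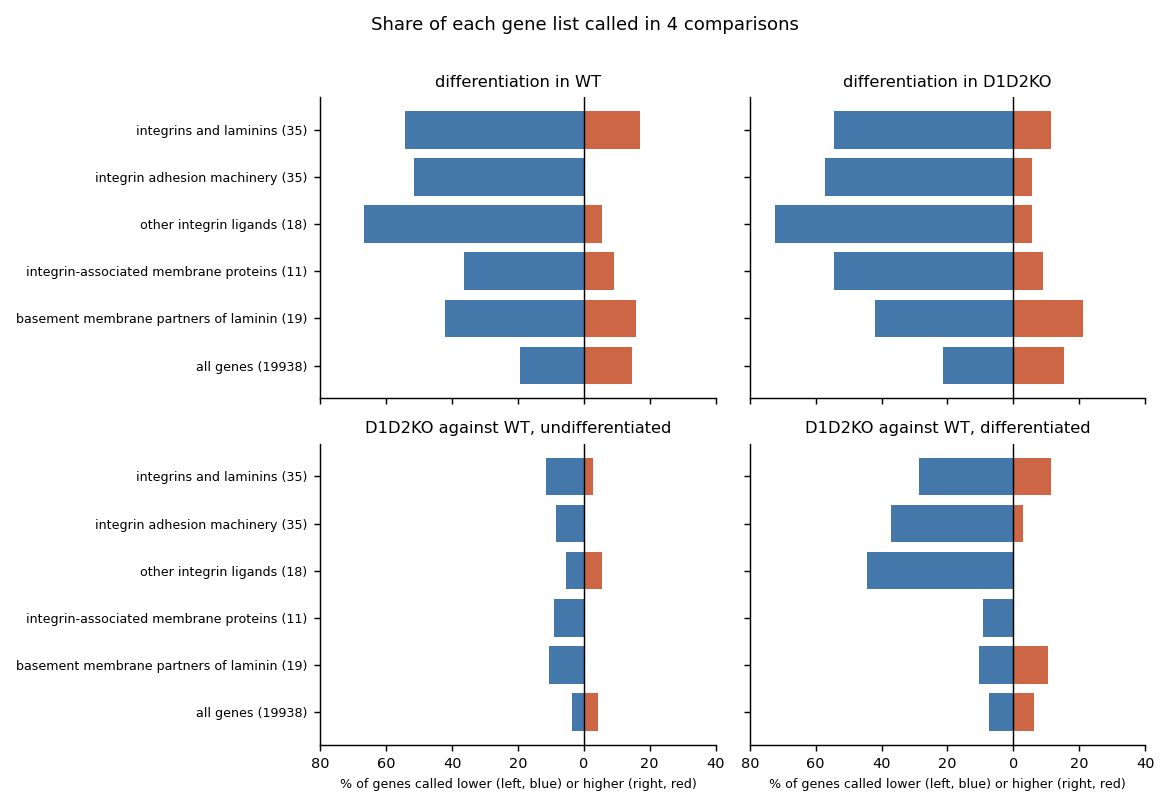
Share of each gene list called lower (blue bars, left) or higher (red bars, right) in 4 comparisons, in percent of the measured genes given in brackets, with all 19938 genes in the bottom row of each panel. In WT differentiation 54.3% of the integrin and laminin genes were called lower against 19.4% of all genes, and 17.1% were called higher against 14.7%.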

How the data were processed

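RNA of 12 samples (4 groups of 3) was measured on a 1-colour array, and the authors deposited 1 normalized log2 value per probe set and sample. The base of the logarithm was inferred from the range of the values (1.15 to 14.17), and the background correction, normalization and software that made them are not given in the sources used here. Column medians of 5.61 to 5.69 show that the arrays had been put on a common scale.

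Of 35556 probe sets, 21789 were assigned to 1 gene, 1621 to several and 12146 to none. Only the first kind was used, and 21698 of these matched a RefSeq gene. Where a gene had several probe sets (999 genes), the one with the highest mean was kept, which left 19938 genes. A linear model of the 4 group means was fitted with limma 3.58.1 in R 4.3.3, and 5 contrasts were tested with Benjamini-Hochberg adjustment over all genes. The script was tested on simulated data with known changes. Signals of different probe sets were not compared with each other, since probes differ in affinity.

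Each sample was set in its group by its label. Same-numbered replicates deviated together only in D1D2KO differentiation (correlations of 0.101 to 0.176, against -0.147 to 0.0522 for other numbers), where the pairing comes from this check and not from the labels. Values in every sample are given for the 12 called members with the largest changes, for members called for the difference in response and for up to 6 uncalled members. From each list and comparison, the text could name up to 4 called genes, taken by size of change, and up to 2 uncalled ones, taken by signal. The members and lists were chosen with earlier results of these data known. The alternatives tried were quantile normalization, median centring, averaging over all probe sets of a gene, restricting the test to brighter genes (above the median signal), a minimum fold of 2, trended and robust variances, a replicate block, only the groups compared, and leaving out each sample. A replicate block within the D1D2KO groups alone was added after seeing the data. The minimum fold of 2 was applied to the counts of members only, and is not among the alternatives counted for single members. Promoter windows are from RefSeq (GRCm38.p6). Ranges written with a hyphen give the lowest and the highest of 3 samples.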

Additional observations from a re-analysis of the deposited data

Results flagged for a closer look

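Among the 35 members, 2 genes were called in the limma test of the difference between the responses of D1D2KO and WT cells. Of all genes 0.712% were called with a more negative and 0.747% with a more positive response in D1D2KO cells. Itga5 (fibronectin receptor alpha subunit) differed by -0.81 on the log2 scale, and Itga11 (fibroblast collagen receptor alpha subunit) by -0.59, with the more negative response in D1D2KO cells for both. The call of Itga5 held in every alternative other than a minimum fold of 2, which neither gene reached. That of Itga11 also ended when any 1 of 6 samples was left out. Every differentiated D1D2KO sample of either gene lay below every other sample of that gene.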

How the results depend on the processing

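The minimum fold of 2 is left out of the next 2 counts. Of 69 called member results, 50 kept their call under all other alternatives run, 19 lost it under at least 1 and 0 reversed in the limma fits. Of 106 uncalled results 11 gained a call under at least 1. Of 200 alternative counts of called members 164 stayed within 1.5 times the main count. With a minimum fold of 2, 0 members were higher and 5 lower in WT differentiation, 0 and 8 in D1D2KO differentiation, 0 and 0 between undifferentiated genotypes, 0 and 1 between differentiated genotypes, and 0 had a lower response. Higher members between undifferentiated genotypes numbered 2 after quantile normalization, with the mean of probe sets, with the replicate block and in only the groups compared, and 0 over genes above the median signal. Between differentiated genotypes, 2 were higher after quantile normalization, 1 over genes above the median signal, and 1 higher and 6 lower in only the groups compared. Lamb3, Itgb2l and Lamc3, with mean signals of 5.05, 5.43 and 5.86, lie below the median signal of 6.05 and were not tested in that setting. With the replicate block, Lama3 lost and Itgb3bp gained a call in D1D2KO differentiation (5 higher, 18 lower), and Itgb4 gained one between undifferentiated genotypes (adjusted p = 0.0416, with 0.0267 to 0.292 over all alternatives), where the numbers do not pair the samples.

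Leaving out 1 sample gave 3 to 6 higher and 18 to 20 lower members in WT differentiation and 2 to 4 and 18 to 19 in D1D2KO differentiation. Between undifferentiated genotypes it gave 0 to 2 higher and 3 to 6 lower, between differentiated genotypes 1 to 4 and 8 to 10, and in the response 0 to 0 higher and 1 to 2 lower. The count of 1 higher between undifferentiated genotypes was 0 without WT undifferentiated replicate 2. The causes were not tested. A fit of only the groups compared does not exist for the response, which needs all 4, and a pseudocount did not apply to log values. Scaling moved the median of all genes by under 0.1. Arrays with 3 samples per group limit the precision, the signal of Itgb6 lies below the lower quartile of every array, and the origin of the samples within a group is unknown.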
